A study of Rattus norvegicus with 52 samples.

Results

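The genes described here are 46 genes of S phase and DNA replication, chosen by symbol from the lists of genes that cycling cells switch on as they copy their DNA, with replication factors added. Of the 46 symbols, 43 were among the 17356 genes counted in 48 RNA-seq libraries of sorted rat mammary cells, and *Dtl*, *Blm* and *Brip1* were not. *Hells* was counted but was at 0 in 47 of the 48 libraries, so 42 members entered most tests.

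Before a cell divides, origins of replication are licensed in G1 by loading of the *Mcm2* to *Mcm7* helicase with the help of *Cdc6* and *Cdt1*, and *Gmnn* (geminin) later blocks *Cdt1* so that no origin fires again. *Cdc45* and the GINS complex then activate the helicase, primase and the polymerases copy the DNA, and the *Pcna* clamp with its loader keeps the polymerases on the template. Many of these genes are transcribed under E2F factors, which the retinoblastoma protein holds in check until cyclin-dependent kinases phosphorylate it. The protein encoded by *Cdkn1b*, p27, inhibits those kinases. In the mammary gland, cells divide most during ductal growth and pregnancy, and few adult luminal cells are in cycle.

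All libraries came from mammary glands of female rats, and each experiment had its own controls. At 9 weeks, ACI rats labelled *Cdkn1b*+/+ (WT) or *Cdkn1b*-/- (KO) gave 2 libraries per genotype of each of 4 populations: basal/myoepithelial cells (Cd24+ Cd29 high), Cd49b+ and PNA+ luminal progenitors (LP; Cd24+ Cd29 low) and mature luminal cells (ML; Cd24+ Cd29 low, without Cd49b and PNA). At the labelled age of 4 weeks there were 3 WT and 3 KO luminal and 3 WT and 2 KO basal libraries, and at 6 weeks there were 2 WT and 2 KO luminal and 3 WT and 2 KO basal libraries. In the estradiol (E2) experiment, ACI rats had 2 control and 2 E2 libraries of each of basal and luminal cells, and BN rats had 1 of each. BN is a strain that resists E2-induced mammary tumors, whereas ACI is susceptible. The KO alleles are small deletions in the first coding exon that break the reading frame, made in Sprague-Dawley zygotes and crossed onto ACI, and the labels do not say which allele a library carries. The paper sorted cells of WT and KO rats from both an early and a later backcross generation. The labels do not give the generation of a library. In these rats p27 is missing in the whole body and not in the mammary epithelium alone. E2 was given by implants that release it continuously. The titles of the BN libraries join a pair of numbers, and whether animals were pooled is not stated.

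Totals per library ran from 21545344 to 33859550 counts at 9 weeks, 14674040 to 23045345 at 4 weeks, 7985619 to 16390460 at 6 weeks and 13659389 to 25280421 in the E2 experiment. Levels are given as CPM, counts scaled to a common library total with a correction for library composition (TMM). *Cdkn1b* fell in KO luminal progenitors at 9 weeks (log2 difference -1.95, SE 0.26, adjusted p = 0.00208, edgeR). Its differences were -1.59 in basal cells and -1.37 in ML (adjusted p = 0.211 and 0.268), and at 4 and 6 weeks it passed in neither cell type (adjusted p of 0.785 to 1.0). In basal cells of 4 weeks it was at 10.1 and 10.2 CPM in KO and at 38.4, 14.7 and 20.9 CPM in WT, and in luminal cells of that age the genotypes overlapped. At 6 weeks 2 libraries went against their labels: the library labelled WT basal 3 was at 3.20 CPM, below both KO basal libraries (9.54 and 10.4 CPM), and the library labelled KO luminal 2 was at 33.8 CPM, inside the WT range of 29.3 to 40.4 CPM. The deletion is small, so counts of the gene check the label only in part. At 9 weeks the basal libraries matched their label, with basal markers at a summed 17800 to 30900 CPM against 276 to 3090 CPM in the luminal libraries, and luminal markers at 4930 to 8950 CPM against 17200 to 63400 CPM. Some libraries stood apart. The first ACI E2 basal library had 23 of the 43 members at 0 and 7716 genes detected, with basal markers at a summed 2290 CPM against 5930 to 15400 in the other 5 basal libraries of that experiment. The first ACI E2 luminal library had 16 members at 0 and a summed fibroblast level of 5590 CPM, where the next highest luminal library had 1230. The library labelled KO luminal 2 at 6 weeks had 11 members at 0, 9241 genes detected, and endothelial, fibroblast and myeloid markers at 1430, 3540 and 663 CPM, against at most 138, 100 and 85.8 CPM in the other 3 luminal libraries of that age. Whether same-group libraries came from separate animals is not stated, so tests measure the spread between these libraries.

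The promoters of 40 of the 46 members could be matched to the RefSeq promoter table (build GRCr8), which gives 250 bases before and 50 after the start of a gene. They are shown because many genes of this kind are transcribed under E2F factors. The members were chosen as genes of S phase, so the shares of motif letters describe that choice. The part of these letters in the levels was not tested. The letters TTTGGCGC, TTTGCCGC, TTTCGCGC and TTTCCCGC, forms of the E2F element, were looked for on both strands. At least one of them stood in 23 of 42 member windows (54.8%) and in 716 of 33469 windows of all genes (2.14%). The letters CCAAT, which NF-Y binds, stood in 61.9% of member windows and 37.5% of all windows, and the letters TTTGAA of the cell cycle homology region, an element of G2 and M phase genes, in 11.9% and 18.3%. A match of letters is a description of the window and not a measured binding site. Below are the 100 bases before the start for *Mcm2* (chr4:122918095-122918194, minus strand), *Mcm5* (chr19:13488713-13488812, plus strand), *Mcm7* (chr12:22163179-22163278, minus strand), *Tyms* (chr9:120776084-120776183, minus strand), *Ung* (chr12:48154046-48154145, minus strand) and *Pcna* (chr3:139955821-139955920, minus strand). Capitals mark E2F letters, which in *Mcm2* are a pair that overlap on opposite strands, and *Pcna* has none of them in its window.
*Mcm2*: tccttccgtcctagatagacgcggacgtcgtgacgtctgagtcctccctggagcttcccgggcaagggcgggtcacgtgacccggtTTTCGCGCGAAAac
*Mcm5*: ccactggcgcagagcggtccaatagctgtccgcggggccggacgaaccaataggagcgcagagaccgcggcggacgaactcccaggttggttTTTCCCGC
*Mcm7*: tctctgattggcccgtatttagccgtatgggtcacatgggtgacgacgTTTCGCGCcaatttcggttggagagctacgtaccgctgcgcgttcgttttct
*Tyms*: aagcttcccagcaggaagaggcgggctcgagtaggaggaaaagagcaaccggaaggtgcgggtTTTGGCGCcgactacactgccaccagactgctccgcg
*Ung*: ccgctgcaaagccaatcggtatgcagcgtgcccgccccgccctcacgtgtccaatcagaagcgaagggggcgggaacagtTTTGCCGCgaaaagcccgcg
*Pcna*: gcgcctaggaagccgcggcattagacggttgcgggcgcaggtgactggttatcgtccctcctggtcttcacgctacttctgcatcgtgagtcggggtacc

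The most marked pattern of these genes at 9 weeks lay between the WT libraries themselves. The libraries of each population are numbered 1 and 2, and in WT cells 37 of 42 members were higher in number 1 than in number 2 in all 4 populations, while none was lower in all 4. Of all 12809 genes tested, 25.5% were higher in number 1 in all 4 WT populations and 26.3% were lower. The median member was higher in number 1 by 1.98 on the log2 scale in basal cells, 1.40 in Cd49b+ LP, 1.40 in PNA+ LP and 1.44 in ML, where the median of all genes lay between -0.04 and 0.00. The 5 members outside the pattern were *Gmnn*, *Gins2*, *Nasp*, *Casp8ap2* and *Clspn*. With 1 library per number and population there is no test, and since same-numbered libraries of a genotype deviated together (correlations of 0.261 to 0.803 over 12 pairs), the 4 populations are not 4 independent observations. Bulk RNA cannot tell a smaller share of cycling cells from less of these RNAs per cell.

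In KO cells the numbers lay closer and the other way around. Of the 42 members, 24 were lower in KO number 1 than in number 2 in all 4 populations (19.7% of all genes) and 3, *Gins2*, *Gmnn* and *Nasp*, were higher in all 4 (17.9% of all genes). The median member difference was -0.30 in basal cells, -0.32 in Cd49b+ LP, -0.42 in PNA+ LP and -0.81 in ML. Both KO libraries lay between the 2 WT libraries for 28 of 42 members in basal cells (23.8% of all genes), 25 in Cd49b+ LP (16.3%), 19 in PNA+ LP (15.2%) and 22 in ML (17.5%). A wider gap between the WT libraries leaves more room between them, so these counts are not separate from the WT split.

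**Figure D1:**
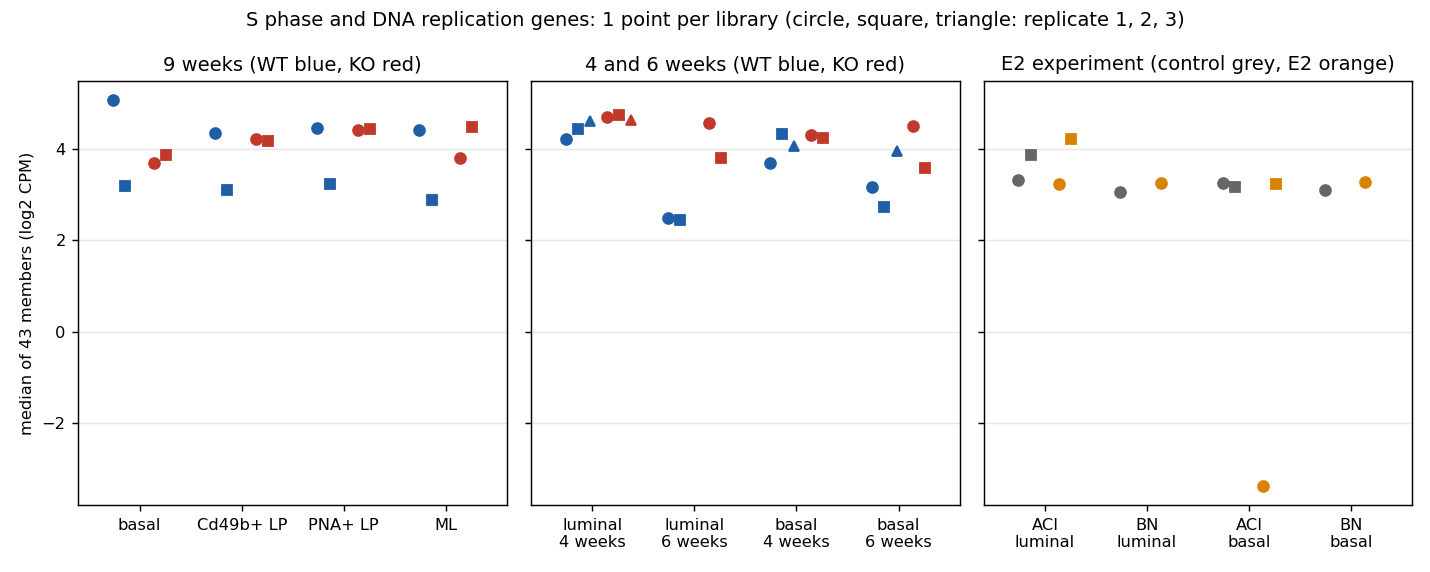
Each point is the median log2 CPM of the 43 members in 1 library, with populations and ages on the x axis, genotype or treatment by colour and the replicate number by marker shape. At 9 weeks WT number 1 libraries sit at 4.34 to 5.06 and WT number 2 libraries at 2.89 to 3.23, with the KO libraries at 3.69 to 4.48, and at 6 weeks the WT luminal libraries sit at 2.44 and 2.48.

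Among the helicase subunits, the WT split was wide for some and narrow for others. *Mcm5* was at 38.9, 33.99, 36.8 and 44.6 CPM in the number 1 WT libraries of basal, Cd49b+, PNA+ and ML cells and at 3.48, 3.04, 2.00 and 3.59 CPM in the number 2 libraries, a mean ratio of 12.6. *Mcm6* was at 101, 113, 116 and 135 CPM in number 1 and at 15.7, 13.8, 12.3 and 14.1 CPM in number 2. For both genes every number 1 library was above every number 2 library, and the 8 KO libraries lay between, at 8.49 to 31.5 CPM for *Mcm5* and 20.4 to 90.6 CPM for *Mcm6*. *Mcm3* was at 118, 42.2, 45.0 and 53.6 CPM against 8.00, 7.65, 7.37 and 4.61 CPM, with KO libraries at 16.6 to 38.8 CPM. *Mcm2* was at 109, 80.3, 92.9 and 111 CPM against 23.4, 29.0, 26.1 and 23.4 CPM, with KO libraries at 38.7 to 85.6 CPM. For these subunits too the WT numbers did not overlap, and in KO *Mcm3* lay between them while *Mcm2* reached into the range of number 1. *Mcm7* was at 96.4, 69.1, 77.5 and 110.1 CPM against 38.8, 27.9, 28.9 and 37.3 CPM, with KO libraries at 37.9 to 86.4 CPM. *Mcm4* differed least of the 6 subunits, with 98.5, 71.9, 60.6 and 47.8 CPM against 46.6, 50.2, 42.3 and 23.7 CPM, and its number 1 and 2 libraries overlapped across populations.

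The loading factors did not move as a unit. *Cdc6*, which recruits the helicase to origins, was at 7.38, 3.36, 2.71 and 4.95 CPM in WT number 1 and at 0.935, 0.372, 0.145 and 1.5 CPM in number 2. *Cdt1*, its partner, was at 13.1, 6.39, 5.53 and 9.75 CPM against 9.84, 4.47, 3.96 and 2.52 CPM. Its log2 difference was smaller than that of *Cdc6* in basal, Cd49b+ and PNA+ cells but not in ML (1.91 against 1.66). *Gmnn*, the inhibitor of *Cdt1*, went the other way in luminal cells, with 19.4, 19.3 and 24.6 CPM in the number 1 libraries of Cd49b+, PNA+ and ML cells and 35.7, 34.9 and 45.8 CPM in number 2. In KO cells *Gmnn* was higher in number 1 in every population, at 33.1 to 39.7 CPM against 16.6 to 22.1 CPM. *Gmnn* thus ran against the median member within each genotype, except in WT basal cells, where number 1 was at 35.7 and number 2 at 21.9 CPM.

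Among the other roles, *Dscc1*, a subunit of the clamp loader that serves sister chromatid cohesion, had the largest mean WT difference, 4.01 on the log2 scale, at 25.9, 9.91, 11.02 and 12.2 CPM in number 1 and 2.10, 0.609, 0.436 and 0.534 CPM in number 2. Large differences were also seen in members that work on chromatin behind the fork. *Uhrf1*, which keeps DNA methylation through replication, differed by 3.49, and *Chaf1b*, a subunit of the histone chaperone CAF-1, by 3.30. The helicase activators *Gins1* and *Cdc45* differed by 2.88 and 2.18, and the polymerase subunits *Pole* and *Pold1* by 2.63 and 2.55. Of the genes that make nucleotides, *Tyms* (thymidylate synthase) was at 27.04, 15.4, 12.8 and 9.39 CPM against 3.18, 6.16, 5.59 and 3.49 CPM, and *Rrm2*, the small subunit of ribonucleotide reductase, at 14.2, 4.75, 3.56 and 2.65 CPM against 3.52, 0.981, 1.16 and 0.922 CPM. *Rrm2* also had the widest KO difference, with a mean of -1.5. The clamp itself, *Pcna*, differed by only 0.42 on average, and the histone chaperone *Nasp* and the histone mRNA binding protein *Slbp* by 0.04 and 0.30.

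**Figure D2:**
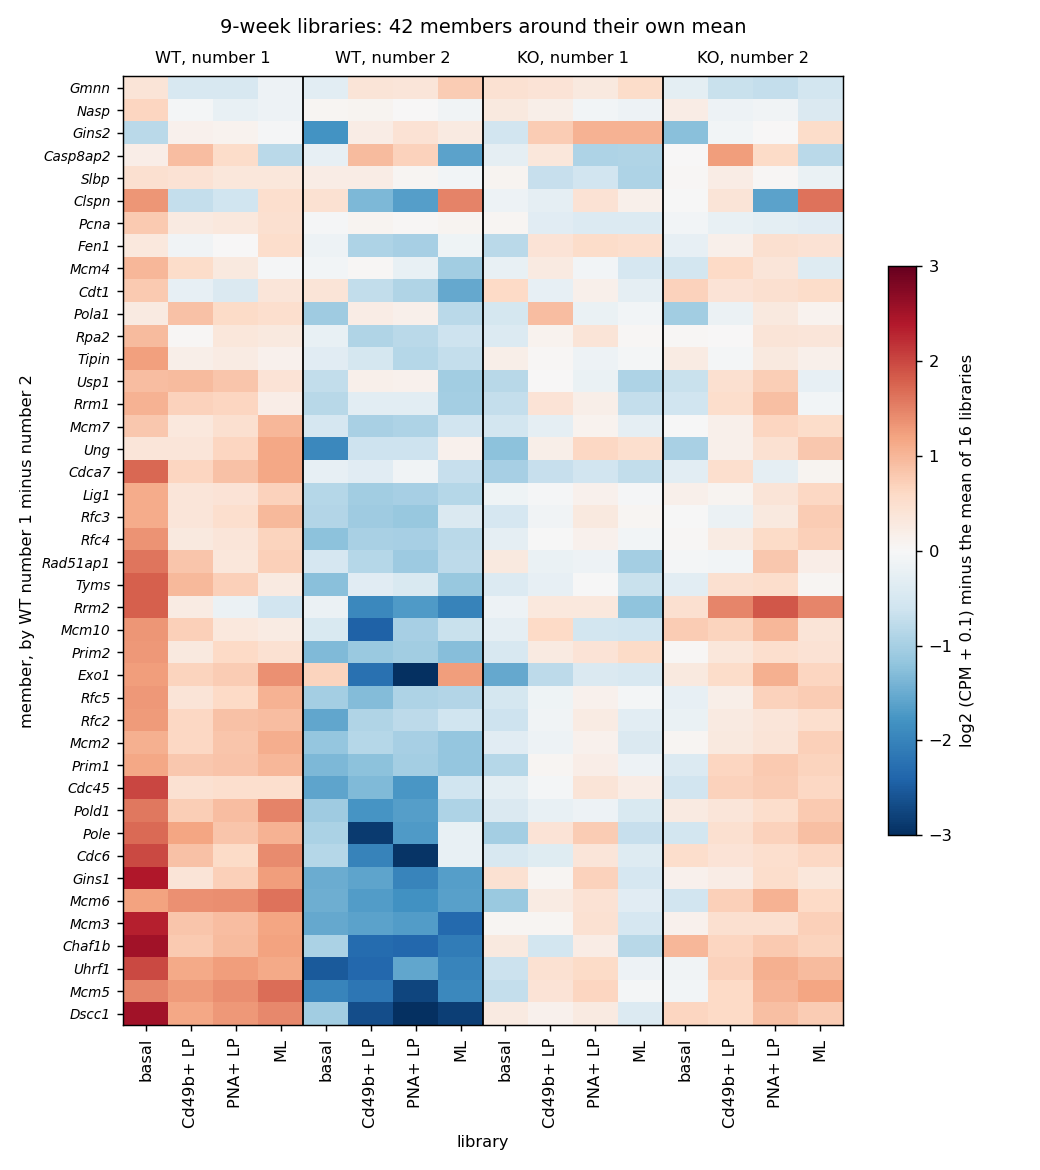
Colours give log2 (CPM + 0.1) of 42 members (rows, ordered by the mean WT difference between numbers) minus each member's mean over the 16 libraries of 9 weeks (columns, grouped by genotype and number). WT number 1 is above WT number 2 in all 4 populations for 37 of the 42 rows, KO columns are mostly paler, and *Gmnn* runs the opposite way in luminal WT cells.

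Other genes of the cell cycle moved with the number as well. The median of 33 other replication genes was higher in WT number 1 by 1.39, 0.87, 0.73 and 0.97 in basal, Cd49b+, PNA+ and ML cells, and that of 46 genes of G2 and M phase by 2.05, 0.94, 0.73 and 0.62. Markers of cell state moved too. The 8 luminal markers summed to 17200, 19200 and 31400 CPM in the number 1 Cd49b+, PNA+ and ML libraries of WT and to 33000, 33000 and 63400 CPM in number 2. The 6 milk genes summed to 44500, 61300 and 91100 CPM in number 1 and to 21300, 24400 and 47700 CPM in number 2, and the 7 fibroblast markers to 691, 603 and 419 CPM against 1550, 1640 and 983 CPM. The part of these levels in the members' difference was not tested.

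Between genotypes, no member passed the test in luminal progenitors of 9 weeks (0 of 42 with edgeR's quasi-likelihood test at an adjusted p under 0.05, where 3.4% of all genes were called). At an unadjusted p under 0.05 there were 5 (18.3% of all genes), of which *Fen1*, *Rrm2* and *Cdt1* were higher and *Pcna* and *Slbp* lower in KO, and DESeq2 called 2, *Fen1* and *Pcna* (8.56% of all genes). The median KO minus WT difference was 0.28 with 34 of 42 members above 0, against a median of 0.03 over all genes. The 4 libraries per genotype come from 2 numbers and 2 gates, so they are fewer than 4 independent observations. None of 33 other replication genes and 3 of 46 genes of G2 and M phase were called, with medians of 0.29 and 1.03. In these libraries milk genes summed to 105000 to 232000 CPM in KO and 21300 to 61300 CPM in WT, and their part was not tested.

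The 2 members with the lowest p went in opposite directions. *Fen1*, the nuclease that trims Okazaki fragments, was at 28.9, 24.3, 31.9 and 30.4 CPM in KO and at 20.1, 11.4, 21.9 and 10.8 CPM in WT. The groups did not overlap, and the log2 difference was 0.85 with an SE of 0.26 (adjusted p = 0.0974, edgeR). *Pcna* was at 165, 177, 157 and 170.1 CPM in KO and at 252, 218, 258 and 213 CPM in WT. These groups did not overlap either, with a difference of -0.48 and an SE of 0.17 (adjusted p = 0.135, edgeR). In WT the lower pair of *Fen1* values came from the number 2 libraries, whereas *Pcna* was above its KO level in both numbers.

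The KO minus WT differences in LP depended on which WT libraries stood as the control. These fits were chosen after the WT numbers were seen to differ in the members, so the choice sets the direction and the values are a description with no test. The WT libraries in each are the 2 gates of 1 number, which deviate together. Against WT number 1 alone the median member was at -0.31 with 34 of 42 below 0, and against WT number 2 alone it was at 1.20 with 37 of 42 above 0. Against number 2 the differences were 3.56 for *Dscc1*, 3.14 for *Mcm5*, 2.69 for *Uhrf1*, 2.38 for *Mcm6* and 2.27 for *Gins1*. *Pcna* was at -0.37 and *Gmnn* at -0.45 in the same fit, on the other side of 0.

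**Figure D3:**
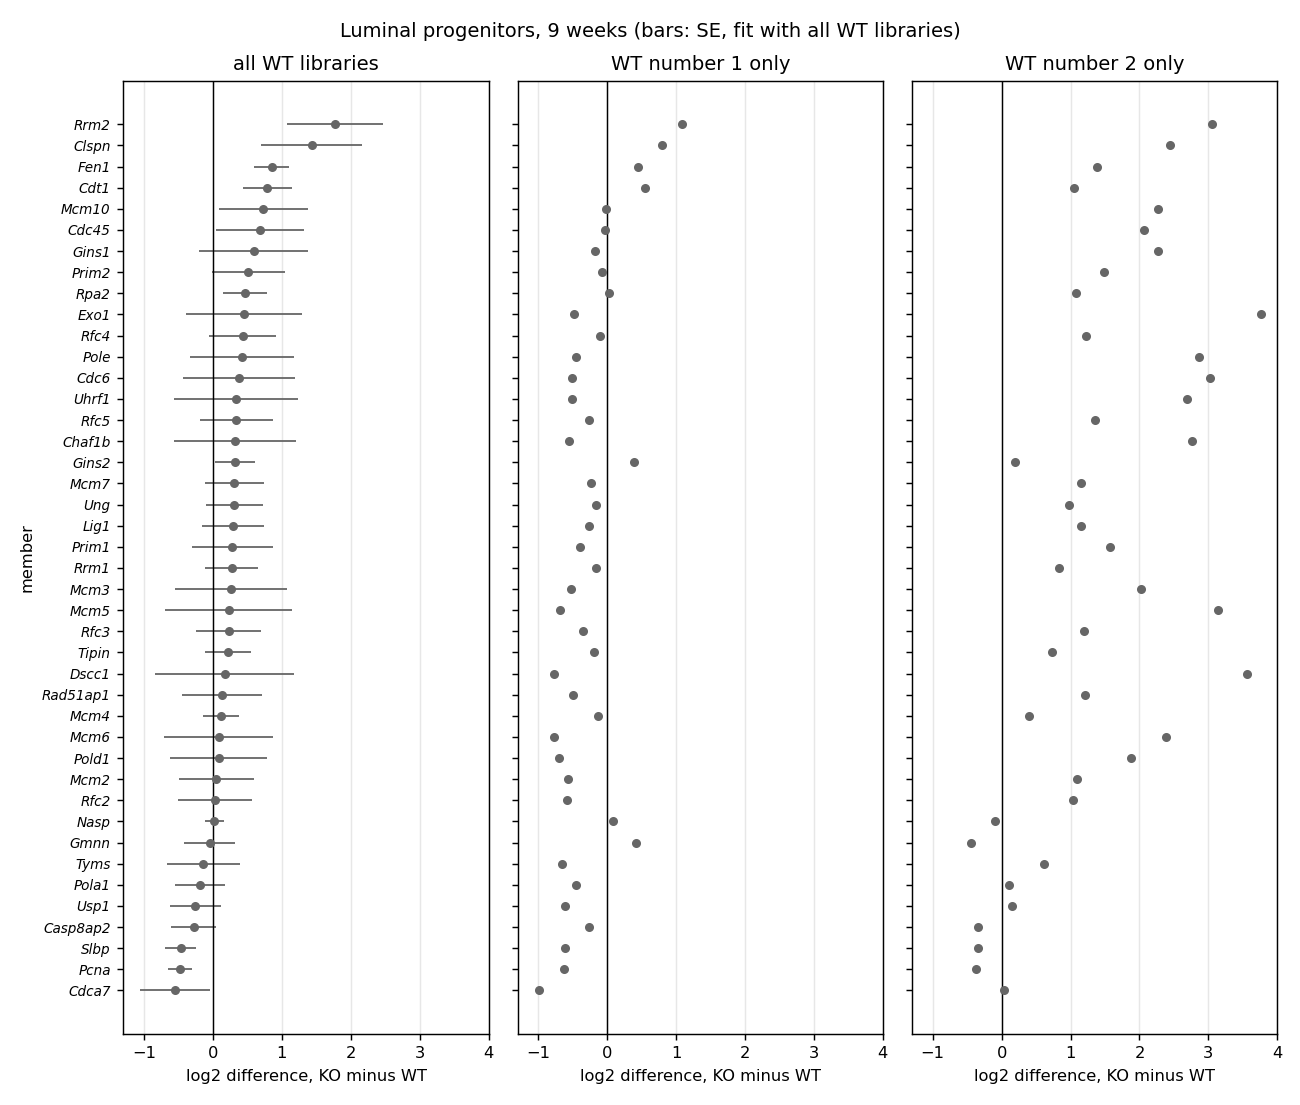
Points are log2 differences, KO minus WT, of 42 members in luminal progenitors of 9 weeks, from fits with all WT libraries (left, bars are SE), WT number 1 only (middle) and WT number 2 only (right). Members centre near 0.28, -0.31 and 1.20, and the direction in the middle and right panels follows from the choice of WT libraries.

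In basal cells of 9 weeks no member passed the test (0 of 42 with edgeR against 0.0546% of all genes, 2 at an unadjusted p under 0.05 against 9.09%, and 0 with DESeq2 against 1.33%). Here 39 of 42 differences were below 0, with a median of -0.74 against 0.00 over all genes. Milk genes summed to 24900 and 29200 CPM in KO and 3970 and 6300 CPM in WT basal cells, basal markers to 27600 and 30900 against 17800 and 21300 CPM, and myeloid markers to 36.4 and 37.4 against 9.83 and 22.3 CPM, and their part was not tested. *Mcm4* was at 42.4 and 33.2 CPM in KO and 98.5 and 46.6 CPM in WT (log2 difference -0.86, SE 0.37, adjusted p = 0.524, edgeR), and *Cdca7*, which recruits the remodeller *Hells*, differed by -1.62 (SE 0.74, adjusted p = 0.539). Both were lower in each KO library than in each WT library. The median was -1.44 against the WT number 1 library alone and 0.67 against number 2 alone, single libraries that give a description with no test.

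In ML no member passed either (0 of 42 with edgeR against 0.133% of all genes, 1 at an unadjusted p under 0.05 against 7.15%, and 0 with DESeq2 against 1.23%), with 20 of 42 above 0. *Pcna* was again lower in KO, at 157 and 165.0 CPM against 288 and 222 CPM in WT (log2 difference -0.59, SE 0.23, adjusted p = 0.56, edgeR). *Slbp* was at 39.9 and 66.8 CPM in KO and at 97.2 and 72.5 CPM in WT, a difference of -0.60 (SE 0.31, adjusted p = 0.753). In ML the milk genes ranged from 142000 to 177000 CPM in KO and from 47700 to 91100 CPM in WT. Myeloid markers ranged from 35.7 to 37.2 CPM in KO and from 12.4 to 24.9 CPM in WT, and the part of these levels was not tested. The median member was at -0.52 against the WT number 1 library alone and at 0.81 against number 2 alone, again with no test. The genotype effect in LP was not shown to differ from that in other cells. The difference of differences against basal cells was called for 0 of 42 members with edgeR (0% of all genes), with 3 at an unadjusted p under 0.05 (7.23%) and 0 with DESeq2 (0.578%), although 37 of 42 were above 0 with a median of 1.02, led by *Fen1* at 1.38 (SE 0.46, adjusted p = 0.589). Against ML it was called for 0 of 42 with edgeR (0% of all genes), with 0 unadjusted (1.75%) and 0 with DESeq2 (0%), and a median of 0.19.

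Between populations of the same genotype, same-numbered libraries deviate together, so values with the number as a block are given beside those without. Between WT progenitors and WT ML 2 members were called, *Casp8ap2* and *Clspn* (11% of all genes), and 0 without the second Cd49b+ library, the second PNA+ library or either ML library. *Casp8ap2*, which takes part in histone gene expression in S phase, was at 17.7, 18.2, 13.7 and 15.2 CPM in LP and at 5.31 and 3.01 CPM in ML, higher by 1.96 (SE 0.46, adjusted p = 0.0228, edgeR). *Clspn* (claspin, an adaptor of the replication checkpoint) was lower in LP by 2.79 on the log2 scale (SE 0.80, adjusted p = 0.0413), from 12 counts in 4 libraries against 33 in 2. When the 2 LP gates were summed per number, no member was called. With the number as a block, 12 were called (34.4% of all genes), *Casp8ap2*, *Mcm4*, *Rrm1* and *Usp1* higher and *Cdc6*, *Clspn*, *Exo1*, *Fen1*, *Mcm7*, *Pold1*, *Rfc3* and *Ung* lower in LP. In the block fit *Mcm4* was higher by 0.72 (SE 0.18, adjusted p = 0.0138) and *Mcm7* was at -0.49, so subunits of one helicase went in both directions.

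In KO cells, LP and ML were told apart by 0 of 42 members with edgeR (0% of all genes), with 1 at an unadjusted p under 0.05 (17.6%) and 0 with DESeq2 (4.72%), and with the block by 1, *Rrm1*, higher in LP by 0.85 (SE 0.17, adjusted p = 0.0463, where 1.78% of all genes were called). *Rrm1* is the large subunit of ribonucleotide reductase. *Casp8ap2* and *Mcm4*, with the lowest p without the block, were higher in LP by 1.29 and 0.69 (SE 0.44 and 0.33, adjusted p = 0.171 and 0.301, edgeR). The 2 LP gates did not separate. PNA+ against Cd49b+ cells gave 0 of 42 members with edgeR (0% of all genes), 0 unadjusted (3.57%) and 0 with DESeq2 (0.341%), and also 0 with the block (1.58% of all genes). The lowest p were those of *Casp8ap2* (-0.63, SE 0.35) and *Mcm4* (-0.30, SE 0.22), both at an adjusted p of 1.0 with edgeR.

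Basal and luminal cells differed in a few members, and *Ung*, *Gins2* and *Nasp* recurred in some of the comparisons. The cell types were not tested against each other at 6 weeks. In WT cells of that age *Ung* was at 35.9, 26.5 and 24.4 CPM in basal and 11.4 and 35.3 CPM in luminal cells. *Nasp* overlapped there as well, whereas *Gins2* was lower in every basal than in every luminal library. In WT cells of 9 weeks, 2 members were called higher in basal cells than in ML (20.9% of all genes), 1 without the first and 4 without the second basal library, and 0 without the second ML library. *Nasp* was at 122 and 81.1 CPM in basal cells and at 70.0 and 73.0 CPM in ML, higher by 0.68 (SE 0.21, adjusted p = 0.0312, edgeR), and *Mcm4* was higher by 1.18 (SE 0.38, adjusted p = 0.04) although its groups overlapped, at 98.5 and 46.6 against 47.8 and 23.7 CPM. With the block, 15 members were called (38.1% of all genes), 13 higher in basal cells, with *Rrm2* at 2.38, *Dscc1* at 1.63 and *Chaf1b* at 1.44, and 2 lower, *Gins2* at -1.19 and *Ung* at -1.20. In KO cells, *Gins2*, a GINS subunit, was at 14.2 and 8.86 CPM in basal cells and at 44.5 and 31.6 CPM in ML (-1.55, SE 0.42, adjusted p = 0.0159), and *Nasp* was at 95.7 and 91.2 against 70.5 and 58.2 CPM (0.71, SE 0.21, adjusted p = 0.0237). These were the 2 members called (23.7% of all genes), of which 0 or 1 was called when any 1 of the 4 libraries was left out. With the block there were 10 (42.5% of all genes), of which *Chaf1b*, *Nasp*, *Pcna* and *Slbp* were higher and *Fen1*, *Gins2*, *Mcm5*, *Mcm6*, *Prim1* and *Ung* lower in basal cells.

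At 4 weeks, WT basal and luminal cells differed in 3 members (23.5% of all genes), or 1 without the third WT luminal library. *Ung*, the uracil-DNA glycosylase that removes uracil from new DNA, was at 18.3, 31.3 and 20.8 CPM in basal and 108, 95.6 and 81.3 CPM in luminal cells, lower by 1.92 on the log2 scale (SE 0.33, adjusted p = 0.000821, edgeR). *Gins2* was at 7.89, 4.99 and 6.56 CPM against 14.7, 20.4 and 24.4 CPM (-1.52, SE 0.39, adjusted p = 0.0117). *Rrm2* was higher in basal cells, at 14.4, 32.6 and 18.3 CPM against 6.78, 10.2 and 13.5 CPM (1.19, SE 0.39, adjusted p = 0.0443). None of the 3 pairs of groups overlapped. Libraries with the same title stem deviated together at this age (correlations of 0.109 to 0.615 over 5 pairs), and with the stem as a block 8 members were called (31.8% of all genes), the added ones being *Mcm5*, *Mcm6*, *Pold1*, *Pole* and *Prim1*, all lower in basal cells. In the E2 experiment, basal and luminal cells differed in 0 of 42 members with edgeR (1.86% of all genes), with 4 at an unadjusted p under 0.05 (17.4%) and 1, *Pcna*, with DESeq2 (14.3%). *Ung* had a lowest, median and highest value of 0, 7.30 and 19.2 CPM in the 6 basal libraries and 36.4, 40.2 and 58.7 CPM in the 6 luminal libraries, which did not overlap (-2.61, SE 1.15, adjusted p = 0.265, edgeR). *Pcna* and *Nasp*, with the lowest p, were higher in basal cells by 0.84 and 0.63 (SE 0.29 and 0.26, adjusted p = 0.169 and 0.235). In those libraries fibroblast markers reached 19300 CPM in basal cells and 5590 CPM in luminal cells, and their part was not tested.

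**Figure D4:**
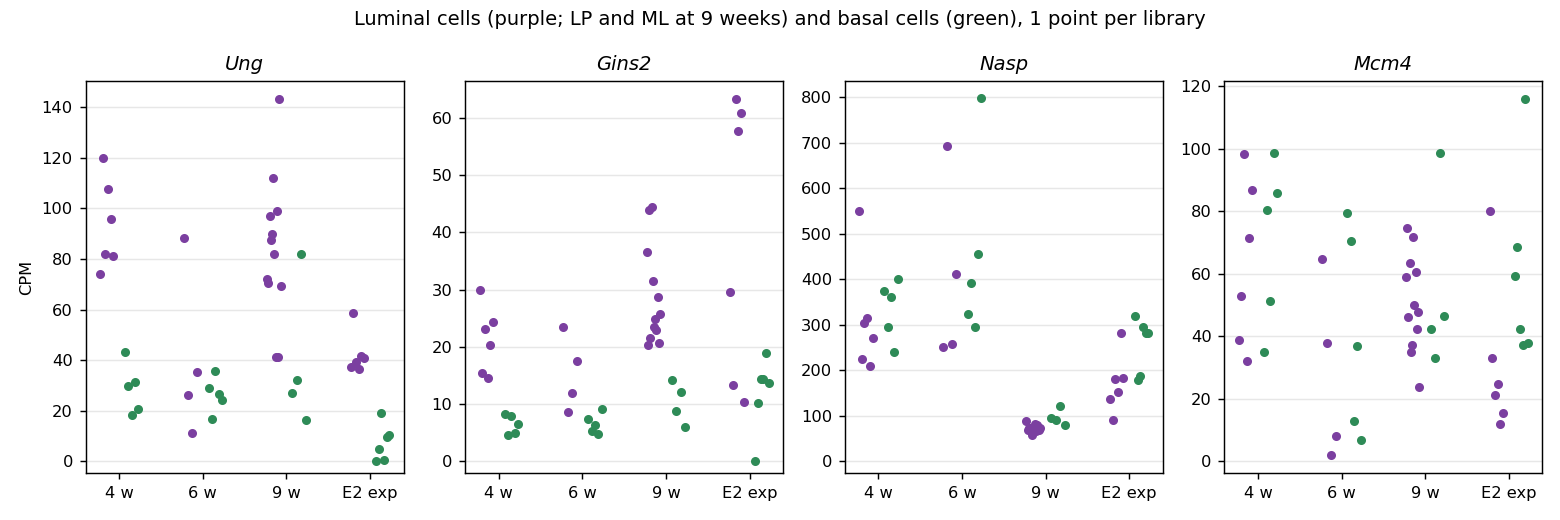
CPM of *Ung*, *Gins2*, *Nasp* and *Mcm4* in each of the 48 libraries, luminal cells in purple (LP and ML at 9 weeks) and basal cells in green, by age or experiment. *Ung* and *Gins2* lie mostly lower in basal cells at 4 and 9 weeks, at 18.3 to 43.2 CPM against 74.2 to 120 CPM for *Ung* at 4 weeks, and *Mcm4* overlaps throughout. At 6 weeks *Ung* overlaps between the cell types.

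From 4 to 6 weeks, 4 of 42 members fell in WT luminal cells (3.1% of all genes called), and 35 of 42 were below 0 with a median of -1.92 against -0.13 over all genes. *Mcm4* was at 32.0, 71.5 and 86.9 CPM at 4 weeks and at 2.03 and 8.02 CPM at 6 weeks (-3.64, SE 0.81, adjusted p = 0.0235, edgeR). *Mcm6* was at 55.5, 113 and 99.7 CPM and then at 8.38 and 17.3 CPM (-2.78, SE 0.73, adjusted p = 0.0473). *Pola1*, the catalytic subunit of polymerase alpha, was at 7.61, 25.4 and 20.0 CPM and then at 1.85 and 1.92 CPM (-3.21, SE 0.83, adjusted p = 0.0428). *Dscc1* went from 5.55, 13.2 and 12.8 CPM to 0 in both 6-week libraries, at least 89.1-fold lower with 3 counts over the group as the floor (adjusted p = 0.00593). In all 4 members no 6-week library reached the lowest 4-week library. DESeq2 called 14 members (13.1% of all genes), and without one or another WT luminal library edgeR called 0 to 5, with 0 when the first 6-week library was left out. None of 33 other replication genes and none of 46 genes of G2 and M phase were called with edgeR (10 and 12 at an unadjusted p under 0.05, where the members had 19 and all genes 20.7%), and their medians were -0.80 and -1.14. In the same libraries hormone-sensing markers went from 529 to 749 CPM at 4 weeks to 1380 and 1770 CPM at 6 weeks, milk genes from 5620 to 11700 CPM to 1780 and 4260 CPM and fibroblast markers from 84.8 to 373 CPM to 15.7 and 35.2 CPM, and their part was not tested.

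The other helicase subunits did not pass the test. *Mcm2* was at 33.97, 80.1 and 89.4 CPM at 4 weeks and 1.06 and 14.0 CPM at 6 weeks, *Mcm3* at 15.98, 46.9 and 50.7 CPM and then 0.441 and 7.95 CPM, and *Mcm5* at 19.3, 39.5 and 46 CPM and then 1.32 and 4.47 CPM. *Mcm7* was at 77.9, 79.4 and 92.5 CPM and then at 117 and 61.0 CPM, which overlap. *Gmnn* was at 60.5, 26.9 and 31.1 CPM and then at 45.2 and 91.7 CPM. The ages did not overlap for *Mcm2*, *Mcm3* and *Mcm5*, whereas for *Mcm7* and *Gmnn* they did. The 6-week WT luminal libraries were shallower, at 9890608 and 13145216 counts with 10956 and 11633 genes detected against 12355 to 12914 at 4 weeks, and the part of depth was not tested.

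In WT basal cells 3 of 42 members changed from 4 to 6 weeks (10.5% of all genes called). *Rrm2* fell from 14.4, 32.6 and 18.3 CPM to 0.652, 2.10 and 6.78 CPM (-2.78, SE 0.80, adjusted p = 0.0339, edgeR), and *Mcm4* from 51.3, 98.7 and 85.8 CPM to 13.0, 37.0 and 6.78 CPM (-2.04, SE 0.64, adjusted p = 0.048). *Usp1*, which removes ubiquitin from *Pcna*, rose from 46.2, 54.3 and 71.3 CPM to 126, 147 and 104 CPM (1.14, SE 0.35, adjusted p = 0.0445). The ages did not overlap in these members. The calls rested on every library of 4 weeks, since 0 members were called when any of the 3 WT basal libraries of that age was left out, and 1 to 2 when one of 6 weeks was. DESeq2 called 7 (20.7% of all genes). Basal markers went from 12800 to 13700 CPM at 4 weeks to 5760 to 8370 CPM at 6 weeks, fibroblast markers from 1070 to 5630 CPM to 70.2 to 524 CPM and hormone-sensing markers from 46.8 to 66.8 CPM to 185 to 359 CPM, and their part was not tested. The library labelled WT basal 3 at 6 weeks, whose *Cdkn1b* level went against its label, with the fewest counts of all (7985619) and myeloid markers at 311 CPM, had *Cdc6* at 37.0 CPM and *Pcna* at 917 CPM, where the other 2 had 2.75 and 0.480 CPM and 303 and 270.0 CPM. Without it the median member difference went from -0.33 to -1.1.

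**Figure D5:**
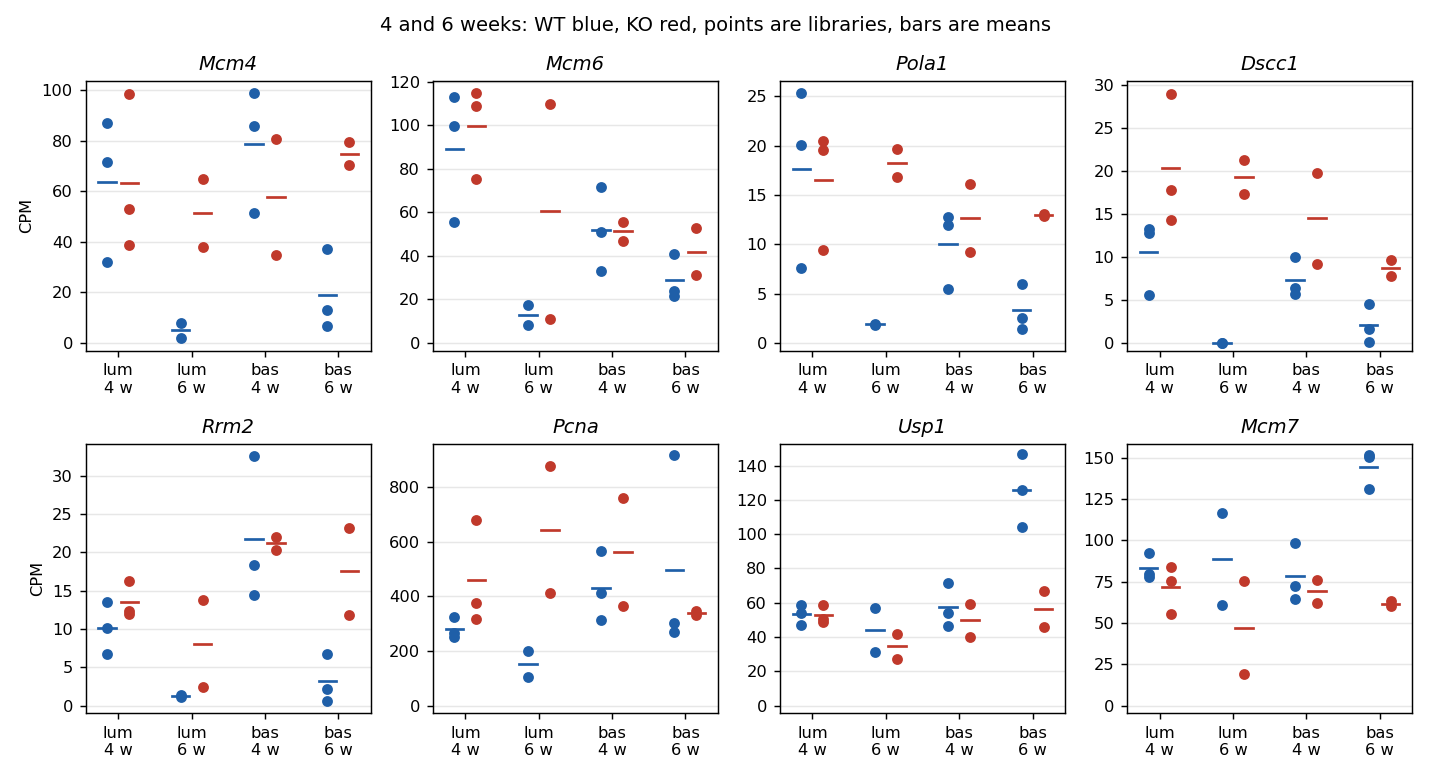
CPM of 8 members in luminal (lum) and basal (bas) cells at 4 and 6 weeks, with a point per library, a bar at the group mean, WT in blue and KO in red. WT luminal cells of 6 weeks are near 0 for *Mcm4*, *Pola1*, *Dscc1* and *Rrm2* (at most 8.02 CPM), KO luminal libraries of that age are higher for *Mcm4* and *Dscc1*, and *Mcm7* and *Usp1* do not follow.

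Genotype called no member at 4 weeks. In luminal cells 0 of 42 passed with edgeR (0% of all genes), with 4 at an unadjusted p under 0.05 (3.6%) and 0 with DESeq2 (0%), and 29 were above 0 with a median of 0.15. *Gins1*, a GINS subunit, was at 24.03, 9.78 and 10.8 CPM in KO and at 4.01, 7.02 and 8.18 CPM in WT (1.17, SE 0.47, adjusted p = 0.854, edgeR). *Rfc4*, a subunit of the clamp loader, was at 92.1, 71.0 and 52.6 CPM against 39.8, 39.1 and 48.1 CPM (0.73, SE 0.33, adjusted p = 0.854). Both were higher in every KO than in every WT library. In basal cells 0 of 42 passed with edgeR (0% of all genes), with 1 at an unadjusted p under 0.05 (2.57%) and 0 with DESeq2 (0.00828%), and *Rfc3*, another loader subunit, led with 0.89 (SE 0.38), followed by *Dscc1* with 1.00 (SE 0.50), both at an adjusted p of 1.0.

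At 6 weeks the luminal values of the genotypes lay far apart but the spread was wide. No member passed with edgeR (0 of 42, 0% of all genes), while 11 were at an unadjusted p under 0.05, all higher in KO (16.4% of all genes in either direction). DESeq2 called 7 (11.2% of all genes), namely *Dscc1*, *Mcm2*, *Mcm4*, *Pcna*, *Pola1*, *Rfc2* and *Tipin*, and 36 of 42 were above 0 with a median of 1.88 against -0.01 over all genes. *Dscc1* was at 17.3 and 21.2 CPM in KO and at 0 in both WT libraries, at least 163-fold higher with the same floor (adjusted p = 0.142, edgeR). *Mcm4* was at 64.6 and 37.8 CPM in KO and 2.03 and 8.02 CPM in WT (3.35, SE 1.01, adjusted p = 0.184). The 2 KO libraries differed from each other in other members. *Mcm5* was at 38.5 CPM in the first and 0 in the second, *Mcm3* at 54.9 and 1.21 CPM, *Mcm6* at 110.1 and 11.1 CPM, and *Tyms* at 17.9 and 0 CPM, while *Pcna* was at 412 and 875 CPM. The first carries a lower title number than the WT libraries of that age, and the part of age was not tested. The second is the library with high endothelial, fibroblast and myeloid markers and with *Cdkn1b* inside the WT range. Without it, the median member difference was 2.07. Without the first, which leaves the second as the only KO library, the median was 0.69, with 24 of 43 members above 0 and 19 below.

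The change of the genotype difference between ages was tested in luminal cells. *Dscc1* was the 1 member of 42 called (1.21% of all genes), at 10.43 on the log2 scale (SE 1.95, adjusted p = 0.0174, edgeR). Its size is set by the prior count, because the WT libraries of 6 weeks were at 0. Its values were 29.0, 17.8 and 14.3 CPM in KO and 5.55, 13.2 and 12.8 CPM in WT at 4 weeks. Without the library labelled KO luminal 2 the *Dscc1* difference was 10.27, and the median over members went from 1.55 to 1.72. Without the first KO luminal library of 6 weeks the *Dscc1* difference was 10.58 and the median 0.25. Each of these fits leaves 1 KO luminal library of 6 weeks. The call of *Dscc1* was lost without the first WT luminal library of that age. In basal cells of 6 weeks 0 of 42 members passed with edgeR (0% of all genes), with 1 at an unadjusted p under 0.05 (8.99%) and 0 with DESeq2 (2.69%). *Mcm4* was at 79.3 and 70.4 CPM in KO and 13.0, 37.0 and 6.78 CPM in WT (2.06, SE 0.84, adjusted p = 0.528), and *Usp1* at 66.8 and 45.99 CPM against 126, 147 and 104 CPM (-1.07, SE 0.48, adjusted p = 0.559). The median rose from 0.47 to 1.07 when the library labelled WT basal 3 was left out.

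E2 and strain called no member. E2 against control gave 0 of 41 members in luminal cells with edgeR (0% of all genes), with 1 at an unadjusted p under 0.05 (4.07%) and 1, *Slbp*, with DESeq2 (0.783%). In basal cells it gave 0 of 40 with edgeR (0% of all genes), 0 unadjusted (1.6%) and 0 with DESeq2 (0.656%). *Slbp* in luminal cells was at 403 and 404 CPM in ACI controls and 114 and 160 CPM in ACI E2 rats, and at 885 and 366 CPM in the BN control and BN E2 library, lower with E2 by 1.5 on the log2 scale (SE 0.34, adjusted p = 0.999, edgeR). Each E2 library was below each control library. *Pole* was at 66.7, 4.37 and 12.8 CPM with E2 and at 1.80, 6.20 and 1.25 CPM in controls (3.13, SE 1.38, adjusted p = 0.999, edgeR). The first ACI E2 luminal library was highest, and BN was at 12.8 CPM with E2 and 1.25 CPM without. The second ACI E2 library lay within the control range. Most helicase subunits were at or near 0 in the first ACI E2 luminal library, with *Mcm3*, *Mcm5* and *Mcm6* at 0, while *Mcm4* was at 80.0 CPM and *Mcm7* at 46.2 CPM. In basal cells *Mcm4* was at 59.2, 68.6 and 116 CPM with E2 and at 42.4, 37.3 and 37.8 CPM in controls (0.93, SE 0.46), and *Gins1*, with 143 counts against 12, differed by 6.08 (SE 3.29), both at an adjusted p of 1.0 with edgeR.

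Between strains, 0 of 41 members passed in luminal cells with edgeR (0% of all genes), with 3 at an unadjusted p under 0.05 (4.58%) and 1, *Rad51ap1*, with DESeq2 (2.66%). *Slbp* was lower in ACI by 1.22 on the log2 scale (SE 0.34, adjusted p = 0.932, edgeR). *Pcna* was at 306, 229, 141 and 135 CPM in ACI and at 494 and 407 CPM in BN, without overlap (-1.19, SE 0.36, adjusted p = 0.932). *Rad51ap1* was at 0 in both BN luminal libraries and at 0.159 to 10.5 CPM in ACI. In basal cells 0 of 40 passed with edgeR (0% of all genes), with 1 at an unadjusted p under 0.05 (0.788%) and 0 with DESeq2 (0.0709%). *Cdt1* was at 16.3, 21.8, 24.3 and 11.52 CPM in ACI and 78.8 and 42.9 CPM in BN (-1.64, SE 0.64, adjusted p = 1.0), and *Gins1* differed by -4.39 (SE 3.06). Both tests rest on 2 BN libraries per cell type, 1 per treatment.

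Across the 48 libraries the correlation of single members with the other members varied widely. As a description, 26 of 42 members had a correlation of 0.5 or more with the mean of the others, led by *Mcm6* and *Chaf1b* (0.82), *Mcm5* (0.81), *Mcm3* and *Cdc45* (0.79) and *Rrm2* (0.77). The share of all genes that reach 0.5 is not given, so this count is not a result about the members. Under 0.2 were 8 members: *Pole* (0.17), *Cdt1* (0.11), *Pcna* (0.06), *Slbp* (0.01), *Casp8ap2* (0.00), *Nasp* (-0.02), *Usp1* (-0.06) and *Gmnn* (-0.17). Among 10354 genes compared, the 5 non-members most like the mean of 39 members were *Tk1* (0.83), *Cdca3* (0.82), *Mrps26*, *Apitd1* and *Ddx39b* (each 0.81), of which *Tk1* makes thymidine monophosphate. *Mrps26*, *Apitd1* and *Ddx39b* were on none of the gene lists used here. The libraries share a protocol but differ in depth (7985619 to 33859550 counts), and the part of depth was not tested. Whether some of them share animals is not stated. They include the pair of E2 libraries in which many members were at 0. Levels of different genes are not compared here, since CPM takes no account of gene length.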

How the data were processed

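Sorted cells were profiled by RNA-seq. The deposited values are unnormalized counts for each gene symbol. The authors obtained these counts by mapping reads, sequenced from one end after SMARTer amplification of small RNA amounts, onto rn6 (STAR 2.5.1b) and assigning them to refGene models with htseq-count. Reads not assigned to a gene made up 47.1% to 77.0% of each file and were left out. The members and all gene lists were chosen with earlier results of these data known. Progesterone receptor ChIP peaks were not used.

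Genes with low counts were removed with filterByExpr and counts were scaled by TMM. The CPM given are counts on genes scaled to a common library total after TMM over all libraries, and log2 CPM used a prior count of 2. The main test was edgeR's quasi-likelihood test (edgeR 4.0.16, limma 3.58.1, R 4.3.3), with Benjamini-Hochberg adjustment over all genes tested and a threshold of 0.05. The 9-week libraries were fitted together with both LP gates as 1 population, each younger age by itself, both ages together for age, and the E2 experiment with strain and treatment as terms. Alternatives were DESeq2 1.42.0, RLE scaling, no filter, a replicate block and leaving out each library. Counts limit precision only for low genes, and floors of 3 counts cover counting error only. Scripts were tested on simulated data.

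Members named are those called (at most 8 with the lowest p), or the 2 with the lowest p where none was, with *Mcm2* to *Mcm7*, *Pcna*, *Cdc6*, *Cdt1*, *Gmnn*, *Tyms* and *Rrm2* by library. Other members named were chosen after their values were seen. Libraries were checked in pairs within groups for duplicates, and none was found. Across genotypes, same-numbered 9-week libraries did not deviate together (correlations of -0.365 to 0.001 over 16 pairs). Correlations over 0.1 in every pair marked the 9-week numbers within a genotype and the 4-week title stems as pairs, whereas the title stems at 6 weeks (-0.006 to 0.086) and in the E2 experiment (0.079 to 0.206) did not meet that mark.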

Additional observations from a re-analysis of the deposited data

Results flagged for a closer look

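In KO luminal progenitors of 9 weeks, 1 library lay apart from the other 3 for 3 members, with a gap that made up most of the group's range in log2 CPM: 0.908 for *Mcm3* (24.8 CPM in the first Cd49b+ library against 32.2 to 33.1 CPM), 0.846 for *Cdc6* (1.36 CPM in the same library against 2.32 to 2.56 CPM) and 0.874 for *Rad51ap1* (2.56 CPM in the second PNA+ library against 1.21 to 1.34 CPM). The limit is 0.829, 86 groups of 4 were looked at, and chance passes it in about 1 in 20. In luminal cells the KO minus WT difference of *Dscc1* was larger at 6 than at 4 weeks by 10.43 on the log2 scale (edgeR interaction, adjusted p = 0.0174), a size that depends on the prior count since both 6-week WT libraries were at 0.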

How the results depend on the processing

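Values are numbers of members called. DESeq2 in place of edgeR gave 2 for genotype in LP (edgeR 0). Basal against ML in WT had 5 (edgeR 2), where DESeq2 called 3415 of all 12809 genes. Genotype in luminal cells of 6 weeks had 7 (edgeR 0), and age in WT luminal and basal cells had 14 and 7 (edgeR 4 and 3). The difference between ages had 4 (edgeR 1), where DESeq2 called 964 of all 12572 genes. E2 and strain in luminal cells and basal against luminal cells in the E2 experiment had 1 each (edgeR 0). Shares of all genes for the other DESeq2 counts are given in the Results. With the replicate block the counts were 12 and 1 for LP against ML in WT and KO and 15 and 10 for basal against ML in WT and KO. There were 8 for basal against luminal WT cells of 4 weeks. For genotype in LP, where the number did not pair the genotypes, the block gave 1 (*Fen1*), with 671 of all 12809 genes called. The crossed pairing, chosen after seeing the data, gave 4 for genotype in LP. Its share of all genes is not given, so no conclusion is drawn from it. With the LP gates summed per number, LP against ML in WT gave 0. WT number 2 alone gave 20 in LP (551 of 13156 genes) and WT number 1 alone gave 1 in basal cells (52 of 13135 genes), fits whose control libraries were chosen after the split was seen, the basal one being 1 library assumed to vary like the other groups. The block changed no other count past 1.5 times.

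Leaving out each replicate in turn gave 0 to 2 for LP against ML in WT and 0 to 1 in KO, 0 to 4 and 0 to 1 for basal against ML in WT and KO, 1 to 3 for basal against luminal cells of 4 weeks, 0 to 6 for genotype in luminal cells of 6 weeks, 0 to 5 and 0 to 2 for age in luminal and basal cells, 0 to 9 for the difference between ages, and 0 to 0 for every other comparison. LP against ML in WT fell to 0 without the second Cd49b+ or PNA+ library or either ML library and to 1 without the first Cd49b+ library, and in KO it rose to 1 without the first PNA+ library. Basal against ML gave 0 in WT without the second ML library, 1 without the first and 4 without the second basal library, and in KO 0 without the second basal library and 1 without any other. The 4-week count fell to 1 without luminal replicate 3. Age in luminal cells gave 2, 1 and 1 without 4-week replicate 1, 2 and 3. Fits that leave 1 library in a group take it to vary like the other groups. Their counts, given without shares of all genes, are not a result about the members. Of 510 alternative values of 49 named results, 435 kept the call, 63 lost and 12 gained it. That tally does not speak for the direction of the medians. In LP the median member difference went from 0.28 to -0.31 against WT number 1 alone.

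Groups hold 1 to 4 libraries, and the 6-week libraries are the shallowest. Omitting TMM moved group levels by -0.41 to 0.26.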
